A study of Oryza sativa Japonica Group with 12 samples.

Results

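Heat shock proteins and heat stress transcription factors of rice were followed in stem bases of 6-day-old plantlets, in lines that overexpress the basic helix-loop-helix factor OsbHLH044 and in sister lines without the transgene. A probe set entered the family when the platform annotation gave it 1 gene and a symbol or synonym of that gene began, after a leading Os, with HSP, HSF or HSC and a number or an HSF class. Of the 24251 probe sets tested, 47 met this rule, each for a different gene: 22 small heat shock proteins, 2 large chaperones and 23 heat stress factors (13 of class A, 6 of class B and 4 of class C). The gene table held 49 genes with such names. HSP81-2 and HSP81-3, close relatives of HSP81-1, had no probe set of their own, and no HSP70 carried a name that the rule takes.

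All plants were Oryza sativa cv. Taichung 65 with the crl1 mutation, which blocks the formation of crown roots, so the controls carried it as well. The overexpressing line OsbHLH044_crl1OE_67.1.11.7 (called OE 67.1 here) was set against its null segregant N_OsbHLH044_crl1OE_67.1.1.5 (null 67.1), and OsbHLH044_crl1OE_67.5.9.12 (OE 67.5) against N_OsbHLH044_crl1OE_67.5.13.4 (null 67.5). A null segregant is a sister line that did not inherit the T-DNA. Each line was grown in 3 independent repetitions of 10 to 15 pooled stem bases, with 1 array per repetition and 12 arrays in all. The labels name no heat treatment. Each genotype is represented in a couple by 1 line, so an effect of the transgene cannot be told apart from other differences between sister lines. The promoter of the construct, pC5300.OE, is not given in the sources used here, and the level of OsbHLH044 itself was not analysed here.

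Heat stress factors are transcription factors that bind heat shock elements in promoters. Class A members carry activator motifs, whereas class B members lack them and in Arabidopsis HSFB1 and HSFB2b repress heat-induced genes between stresses; class C is enlarged in grasses. The genes they control include small heat shock proteins, which hold unfolding proteins in a soluble state, the HSP101 disaggregase, which pulls aggregated proteins apart, and HSP90, which helps kinases, receptors and other clients to mature and which in animals and plants also restrains the factors. In vegetative tissue most small heat shock proteins are known to stay nearly silent until heat comes, and some accumulate in maturing seeds.

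Levels are log2 values after RMA, a method that corrects background and makes the arrays alike, so a difference of 1 is a doubling. The median of all probe sets lay between 4.34 and 4.39 on every array and serves below as a rough mark of a weak signal; probes differ in brightness, so levels of different genes are not compared. Of the 47 members, 13 lay above this median on all 12 arrays, 26 on none and 8 on some. The 13 were HSP17.8, HSP17.9B, HSP18.0, HSP18.9, HSP19.0, HSP81-1, HSFA1, HSFA2C, HSFA2D, HSFA5, HSFA9, HSFB4B and HSFB4C. The 26 comprised 12 small heat shock proteins, CLPB1 (the cytosolic HSP101) and 13 heat stress factors. Differences of such weak probe sets are compressed by the background that remains in the signal.

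Of markers for the harvested tissue, 5 of 6 shoot and leaf base genes (chlorophyll-binding proteins, Rubisco small subunit, Rubisco activase and a photosystem I subunit) lay above the array median on all 12 arrays and RBCS1 on none. All 6 are photosynthesis genes, and no gene of the shoot meristem was examined. Of 8 genes listed here as root genes, Lsi1 and SHR1 lay above it on 12 arrays and CRL4 on 10, while QHB, SCR1, NRT2.1, Lsi2 and Roc4 did so on none. Whether each of these is confined to roots was not examined. All 11 seed storage and amylase genes lay below it throughout. The standard deviation over all probe sets of an array ran from 1.61 to 1.67 on the 6 arrays of couple 67.1 and from 1.64 to 1.71 on the 6 of couple 67.5.

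Each probe set was tested with limma, a linear model with a spread estimate shared across genes, over all 12 arrays. The p-values were adjusted by Benjamini-Hochberg across the whole table of 24251, and a gene was called under 0.05. Couple 67.1, couple 67.5, their mean and their difference compare OE with null lines; 2 further comparisons set the null lines of the couples against each other, and likewise the OE lines. These 6 comparisons share arrays, so a line that stands apart enters several of them. The p-values measure the spread between arrays within lines.

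Among the heat stress factors, HSFB2C (LOC4347637), a class B factor, was the 1 member of the whole family that passed the test in any comparison. Its level was 3.69, 3.40 and 3.70 in null 67.5 and 3.02, 2.76 and 2.92 in OE 67.5. All 3 arrays of the overexpressing line lay below all 3 of its sister line. HSFB2C fell by 0.70 ± 0.115 (SE) on the log2 scale in couple 67.5, a 1.62-fold difference (limma, adjusted p = 0.0186). In couple 67.1 the null arrays read 3.17, 3.28 and 2.90 and the OE arrays 3.10, 3.20 and 3.11, which overlapped, and the difference was 0.02 ± 0.115 (adjusted p = 1). The 3 lines other than null 67.5 had means between 2.90 and 3.13 against 3.60 ± 0.17 (SD, n = 3) in null 67.5, so null 67.5 was the high line. OE 67.5 had the lowest mean, 2.90. Its arrays lay below those of OE 67.1 without overlap (-0.24 ± 0.115, adjusted p = 0.207) and overlapped those of null 67.1. Between the null lines the difference was 0.48 ± 0.115 (adjusted p = 0.0916), and the difference between the couples was -0.72 ± 0.16 (adjusted p = 0.346), neither past the threshold.

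The call of HSFB2C in couple 67.5 was close to its limit. With the 6 arrays of the couple alone the adjusted p was 0.0612, and with the unnamed probe sets included it was 0.0578. Leaving out null 67.5 replicate 1 gave 0.0666, null 67.5 replicate 3 gave 0.0745, OE 67.5 replicate 2 gave 0.0887 and OE 67.5 replicate 3 gave 0.072, with differences between -0.709 and -0.632. HSFB2C was also below the array median on all 12 arrays.

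**Figure D1:**
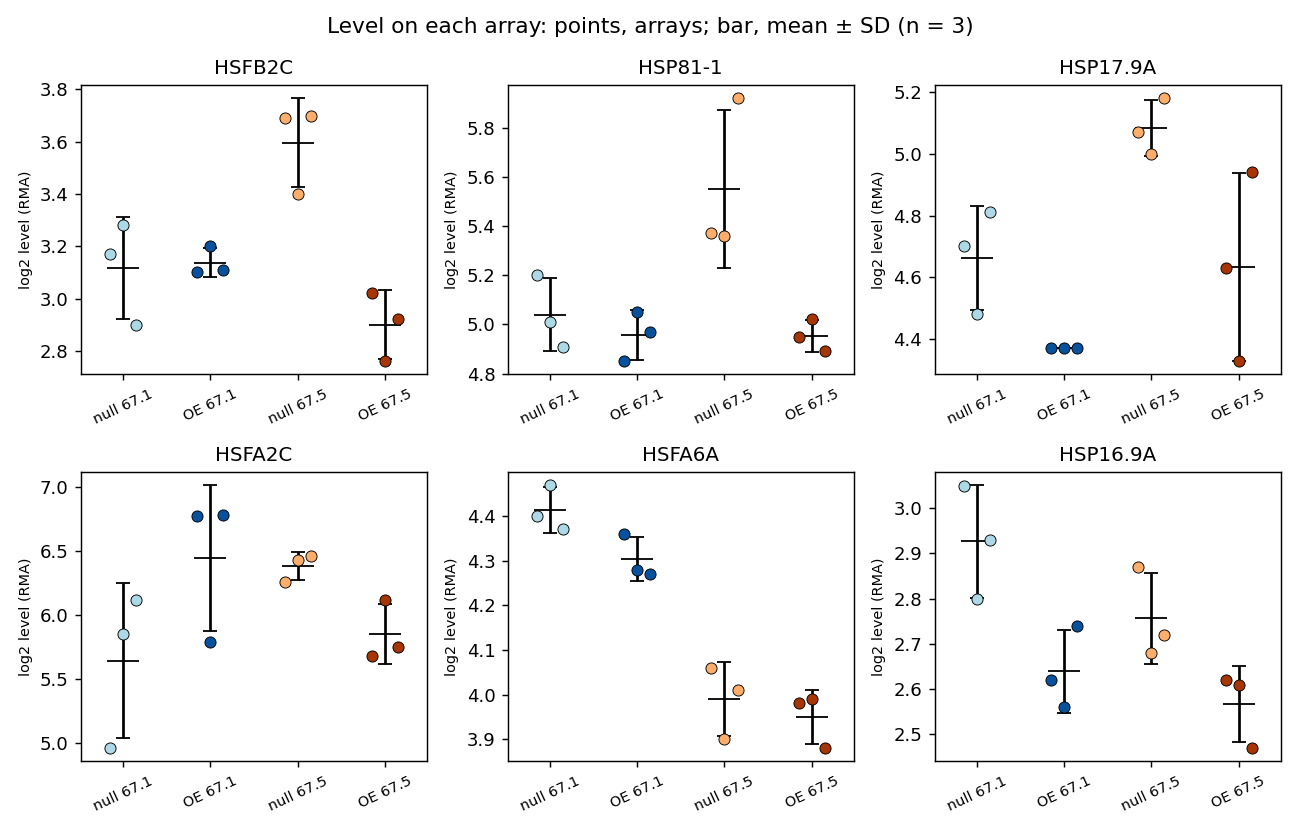
Level (log2, RMA) of 6 members on each of the 12 arrays, grouped by line; points are arrays, bars the mean ± SD of 3 arrays, and each panel has its own axis, which does not start at 0. HSFB2C and HSP81-1 were high in null 67.5, HSP16.9A and HSP17.9A lay lower in OE than in null within both couples, HSFA6A lay lower on the arrays of couple 67.5 and HSFA2C was scattered within the lines of couple 67.1.

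HSFA2C (LOC4348646) belongs to subclass A2, whose Arabidopsis member HSFA2 sustains the heat response. Its level was 4.96, 5.85 and 6.12 in null 67.1 and 6.77, 5.79 and 6.78 in OE 67.1; OE 67.1 was higher on 2 arrays and overlapped null 67.1 with the other. In couple 67.5 the order was opposite, with 6.26, 6.43 and 6.46 in null 67.5 and 5.68, 6.12 and 5.75 in OE 67.5, and the arrays did not overlap. The differences were 0.81 ± 0.28 in couple 67.1 (adjusted p = 1) and -0.53 ± 0.28 in couple 67.5 (adjusted p = 0.502). The difference between the couples was -1.34 ± 0.39 (unadjusted p = 0.00392, adjusted p = 0.634), so the opposite signs did not pass the test. The spread of HSFA2C within lines, an SD of 0.436, was larger than that of 99.5% of the tested probe sets. The gene record of HSFA2C, like that of HSFA2D, also lists names of an acireductone dioxygenase, so which transcript this probe set reads is uncertain.

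HSFA6A (LOC4341326) had larger differences between the couples than within them, none past the threshold. The 6 arrays of couple 67.1 read 4.40, 4.47 and 4.37 in null 67.1 and 4.36, 4.28 and 4.27 in OE 67.1. The 6 arrays of couple 67.5 read 4.06, 3.90 and 4.01 in null 67.5 and 3.98, 3.99 and 3.88 in OE 67.5. All 6 arrays of couple 67.5 lay below all 6 of couple 67.1, and within couple 67.1 the OE arrays lay below the null arrays without overlap. The differences were -0.42 ± 0.08 between the null lines (adjusted p = 0.0536) and -0.36 ± 0.08 between the OE lines (adjusted p = 0.0555), both just short of the threshold. Within the couples OE minus null was -0.105 ± 0.08 and -0.04 ± 0.08 (adjusted p = 1 and 0.871).

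The remaining heat stress factors stayed without a call in all 6 comparisons. In couple 67.5 the arrays of OE lay below those of null also for HSFA2D, HSFB1, HSFC1B and HSFC2A, with differences of -0.31 ± 0.12, -0.26 ± 0.105, -0.20 ± 0.09 and -0.30 ± 0.10. HSFA2D read 5.52, 5.57 and 6.01 in null 67.5 and 5.45, 5.27 and 5.46 in OE 67.5. HSFB1 read 3.81, 3.54 and 3.87 against 3.47, 3.50 and 3.46, and HSFC2A 3.50, 3.32 and 3.62 against 3.07, 3.30 and 3.15. In all 3 the nearest arrays of the lines almost met. OE 67.5 lay above null 67.5 for HSFA9 and HSFB4C, with 0.35 ± 0.14 and 0.19 ± 0.10. In couple 67.1 the corresponding differences of these 6 factors lay between -0.165 and 0.04. HSFA9, known from sunflower and Arabidopsis as a factor of seed maturation, read 4.88, 4.90 and 5.02 in null 67.5 and 5.07, 5.27 and 5.53 in OE 67.5, with an adjusted p of 0.381. HSFB4C belongs to the subclass of the Arabidopsis root patterning factor SCHIZORIZA. It read 5.84, 5.97 and 5.89 in null 67.5 against 6.02, 5.97 and 6.28 in OE 67.5, so the 2 lines met at 5.97 when rounded. HSFA1, from the subclass of the master activators of the heat response in Arabidopsis and tomato, differed by 0.07 ± 0.14 and 0.02 ± 0.14 in the couples. HSFA4D, the gene behind the rice lesion mutant spotted leaf 7, differed by 0.05 ± 0.085 and 0.07 ± 0.085. HSFA6B, below the array median on all arrays, differed by 0.07 ± 0.10 and -0.07 ± 0.10. HSFA5 had the smallest SD within lines of all members, 0.0502.

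Of the large chaperones, HSP81-1 (LOC4345951), a cytosolic HSP90 also named HSP82, read 5.20, 5.01 and 4.91 in null 67.1 and 4.85, 5.05 and 4.97 in OE 67.1. It read 5.37, 5.36 and 5.92 in null 67.5 and 4.95, 5.02 and 4.89 in OE 67.5. Null 67.5 was above the other 9 arrays on all its 3 arrays, as HSFB2C was. The difference in couple 67.5 was -0.60 ± 0.13, a 1.51-fold difference (adjusted p = 0.0908), and between the null lines it was 0.51 ± 0.13 (adjusted p = 0.111). Couple 67.1 gave -0.09 ± 0.13 (adjusted p = 1) and the difference between the couples -0.51 ± 0.19 (adjusted p = 0.904). HSP81-2 and HSP81-3 are near relatives in sequence, and how far their transcripts add to this signal was not tested.

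CLPB1 (LOC4339343), the HSP101 disaggregase, showed no such pattern. It read 3.48, 3.53 and 3.35 in null 67.1, 3.33, 3.73 and 3.38 in OE 67.1, 3.69, 3.28 and 3.36 in null 67.5 and 3.37, 3.33 and 3.43 in OE 67.5. All 4 lines overlapped, and the differences were 0.03 ± 0.12 in couple 67.1 and -0.07 ± 0.12 in couple 67.5 (adjusted p = 1 and 0.864).

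Among the small heat shock proteins, HSP17.9A (LOC4332357) and HSP16.9A (LOC4325697) had OE arrays below null arrays in both couples. Over all tested probe sets, 160 of 24251 did so. HSP17.9A read 4.70, 4.48 and 4.81 in null 67.1 and 4.37 on each array of OE 67.1. In couple 67.5 it read 5.07, 5.00 and 5.18 in null 67.5 and 4.63, 4.33 and 4.94 in OE 67.5. Null 67.5 was again the highest line, and OE 67.5 overlapped null 67.1. The differences were -0.29 ± 0.13 and -0.45 ± 0.13 in the couples (adjusted p = 1 and 0.228), -0.37 ± 0.09 for their mean (adjusted p = 0.193) and 0.42 ± 0.13 between the null lines (adjusted p = 0.147).

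HSP16.9A, a class I cytosolic protein, read 3.05, 2.80 and 2.93 in null 67.1 and 2.62, 2.56 and 2.74 in OE 67.1. It read 2.87, 2.68 and 2.72 in null 67.5 and 2.62, 2.61 and 2.47 in OE 67.5. OE lay below null within each couple, and all 12 values were below the array median. The differences were -0.28 ± 0.095 and -0.19 ± 0.095 (adjusted p = 1 and 0.481) and the mean of both couples was -0.24 ± 0.07 (unadjusted p = 0.0031, adjusted p = 0.266). HSP16.9B (LOC4325698), the next gene along the chromosome, went the other way in couple 67.1, from 3.98, 3.58 and 3.89 to 4.18, 4.32 and 4.01, with no overlap. Its differences were 0.35 ± 0.115 in couple 67.1 (adjusted p = 1) and 0.07 ± 0.115 in couple 67.5 (adjusted p = 0.86). The record of LOC4325697 lists both HSP16.9A and HSP16.9B as names, and the assignment of probes between these tandem copies is uncertain.

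HSP18.9 (LOC4328171) lay above the array median throughout and had its lowest values in OE 67.5. It read 5.98, 6.21 and 5.88 in null 67.1, 5.87, 6.09 and 5.70 in OE 67.1, 5.85, 5.96 and 5.72 in null 67.5 and 5.55, 5.58 and 5.17 in OE 67.5. OE 67.5 was the low line and did not overlap any other. The differences were -0.41 ± 0.13 in couple 67.5 (adjusted p = 0.285) and -0.45 ± 0.13 between the OE lines (adjusted p = 0.0799), against -0.14 ± 0.13 in couple 67.1. HSP24.1 and HSP22.3 had a like order in couple 67.5. HSP24.1 read 4.04, 3.66 and 3.83 in null 67.5 and 3.48, 3.49 and 3.54 in OE 67.5 (-0.34 ± 0.12), and HSP22.3 read 4.81, 4.97 and 4.79 against 4.71, 4.48 and 4.22 (-0.38 ± 0.13), with adjusted p of 0.315 and 0.29.

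HSP18.0, a class II cytosolic protein, was the small heat shock protein whose arrays lay higher in OE 67.5, with 5.89, 5.94 and 5.91 in null 67.5 and 6.04, 6.04 and 6.18 in OE 67.5 (0.17 ± 0.085, adjusted p = 0.48). In couple 67.1 it differed by 0.085 ± 0.085 with overlap. HSP17.9B, above the array median on all 12 arrays, overlapped in both couples and differed by -0.07 ± 0.12 and -0.05 ± 0.12. HSP19.0 read 5.53, 5.50 and 5.53 in null 67.1 and 5.26, 5.41 and 4.96 in OE 67.1 without overlap (-0.31 ± 0.16, adjusted p = 1), while in couple 67.5 its arrays overlapped (-0.15 ± 0.16).

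**Figure D2:**
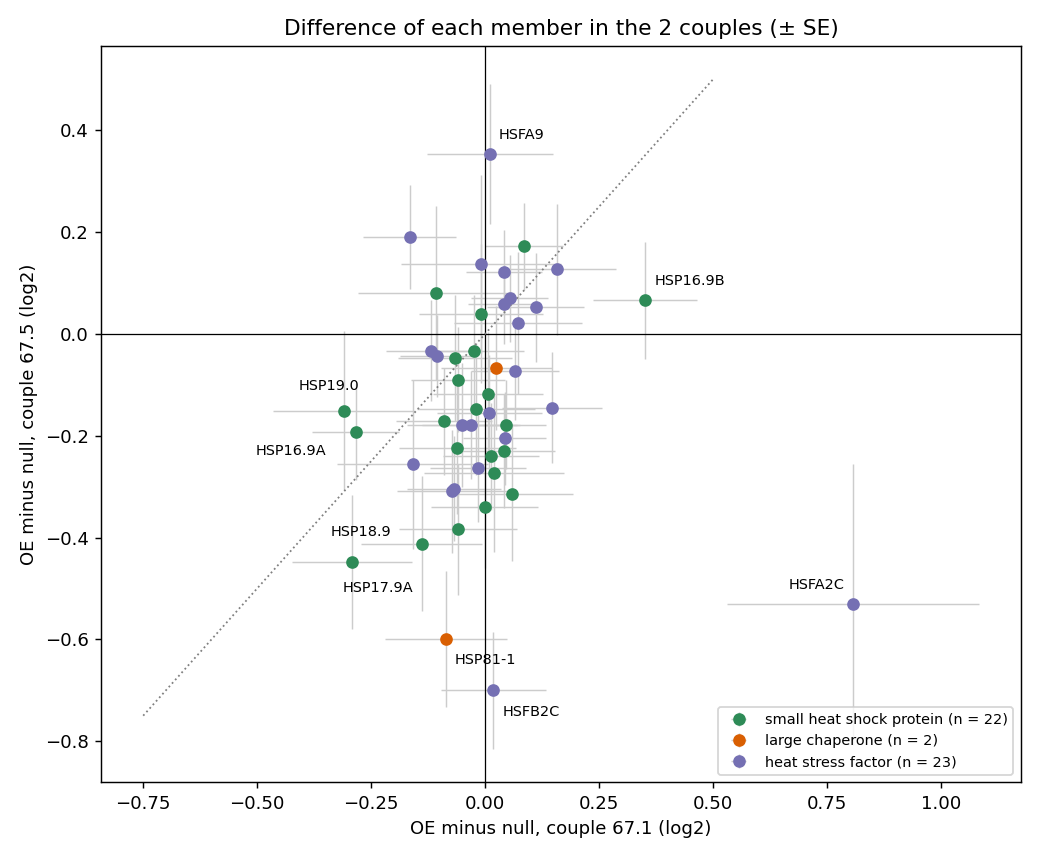
Difference between OE and null on the log2 scale in couple 67.1 (horizontal axis) and couple 67.5 (vertical axis) for the 47 members, with the model's standard errors as grey bars and a dotted line of equality. HSFB2C and HSP81-1 lie near 0 on the horizontal axis and at -0.70 and -0.60 on the vertical one, and HSFA2C lies apart with opposite signs.

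A pair of neighbour groups holds 9 of the small heat shock protein genes in the order of the gene table (assembly ASM3414082v1). In the first, HSP16.6, HSP17.9B, HSP16.9C, HSP16.9A and HSP16.9B follow each other directly. Their differences in couple 67.5 ran from -0.225 to 0.07 with a median of -0.047, and in couple 67.1 from -0.28 to 0.35 with a median of -0.061, with both signs in each couple. In the second group, HSP17.4, HSP18.1 and HSP17.7 follow each other and HSP17.9A lies 5 genes before HSP17.4. All 4 were lower in OE 67.5 than in null 67.5, by -0.45 to -0.15 with a median of -0.246, and none passed the test.

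The same 4 genes were higher in null 67.5 than in null 67.1, with differences of 0.31 ± 0.13 for HSP17.4, 0.27 ± 0.09 for HSP17.7, 0.03 ± 0.13 for HSP18.1 and 0.42 ± 0.13 for HSP17.9A (adjusted p between 0.147 and 0.941). HSP17.7 read 3.40, 3.58 and 3.54 in null 67.1 and 3.78, 3.89 and 3.66 in null 67.5, which did not overlap. HSP17.4 read 2.86, 2.85 and 2.81 against 3.52, 2.82 and 3.12, where null 67.5 replicate 1 was high and replicate 2 lay within the range of null 67.1. HSP18.1 read 2.84, 2.64 and 2.60 in null 67.5 and 2.46, 2.41 and 2.76 in OE 67.5, which overlapped. In couple 67.1 the 4 genes differed by between -0.29 and 0.06. Their sequences are alike, and how far probes of one read another was not tested.

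**Figure D3:**
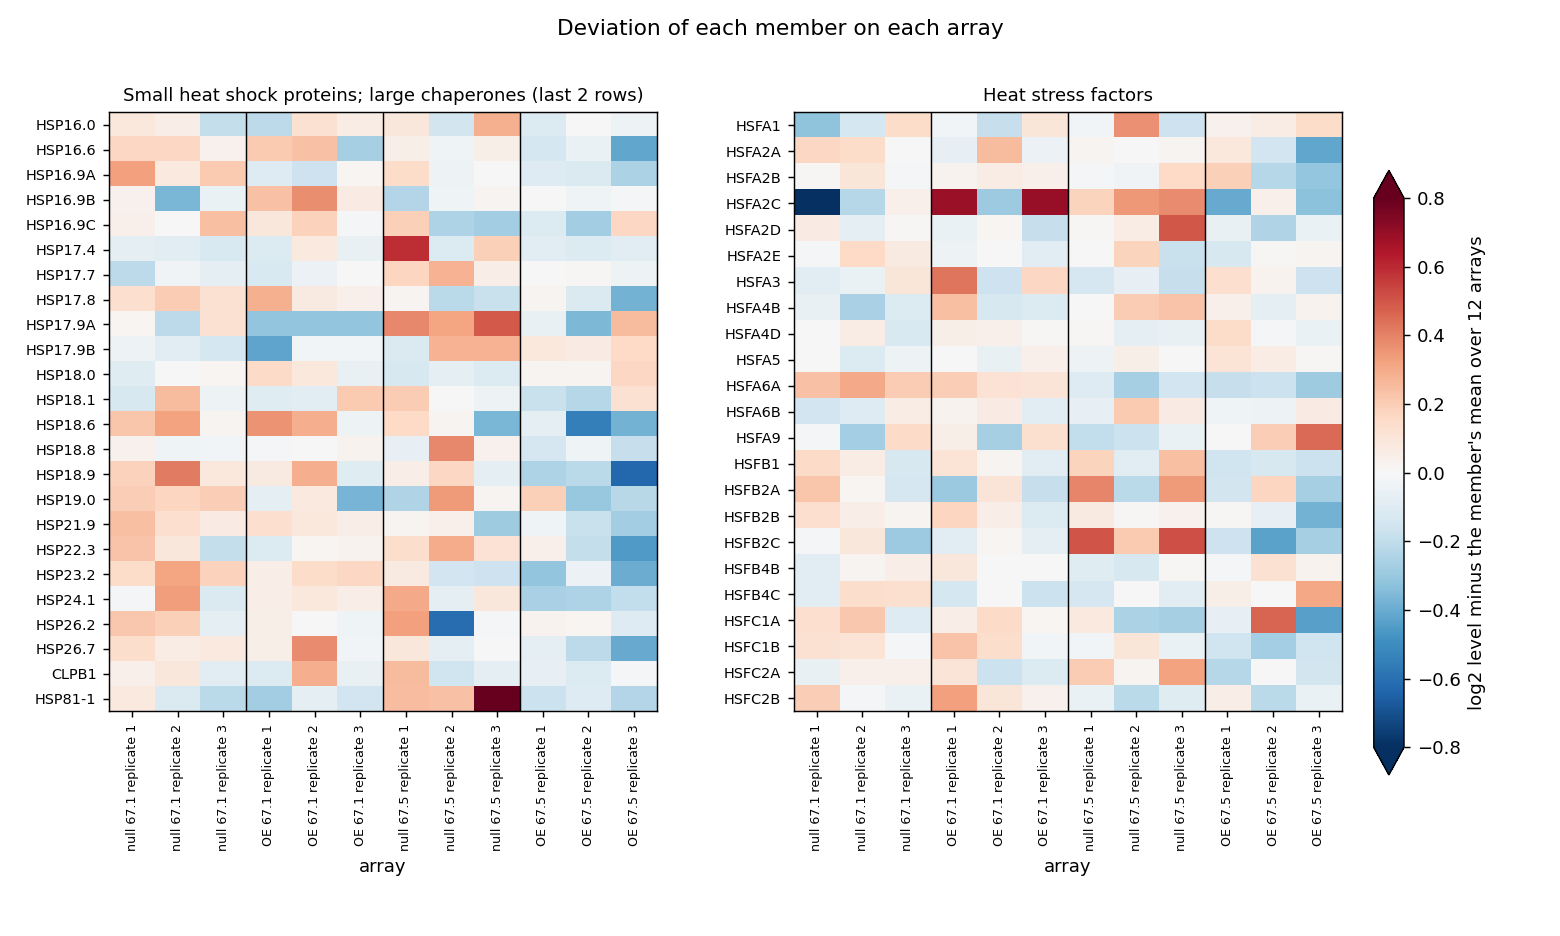
Deviation of each of the 47 members on each array from its own mean over the 12 arrays, in log2 units (red above, blue below, colours end at ±0.8). Columns are arrays in line order and rows are genes; the last 3 columns of both panels, the OE 67.5 arrays, are mostly blue.

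Counted over the family, no member passed the adjusted threshold for the mean of both couples, in couple 67.1, in the difference between the couples, between the null lines or between the OE lines, and 1 of 47 did so in couple 67.5. Over all tested probe sets the shares past it were 0.186% for the mean of both couples, 0.0165% in couple 67.1, 0.342% in couple 67.5, 0.0330% for the difference, 0.231% between the null lines and 0.829% between the OE lines. The single call is a result on HSFB2C, not on the family.

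At an unadjusted p under 0.05 in limma, 10 of 47 members (21.3%) stood out for the mean of both couples, 8 of them lower, where 9.00% of all tested probe sets did. In couple 67.5 they were 13 (27.7%), 12 lower and 1 higher, against 10.8% of all. In couple 67.1 they were 4 (8.51%), 2 in each direction, against 3.46%. For the difference between the couples they were 4 (8.51%), against 5.00%. Between the null lines they were 11 (23.4%), 4 lower and 7 higher in null 67.5, against 17.5%, and between the OE lines 11 (23.4%), 10 of them lower in OE 67.5, against 25.7%, which is near the background. With 47 members these counts rest on few genes, and several of them are neighbours of like sequence.

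Members were also counted by whether the 3 OE and 3 null arrays overlapped. In couple 67.5, OE lay lower for 14 of 47 members where 6.88% of all tested probe sets did, and higher for 3, against 8.00%. The 14 were HSP16.6, HSP16.9A, HSP17.7, HSP17.9A, HSP18.9, HSP22.3, HSP24.1, HSP81-1, HSFA2C, HSFA2D, HSFB1, HSFB2C, HSFC1B and HSFC2A. In couple 67.1, OE lay lower for 4 (HSP16.9A, HSP17.9A, HSP19.0 and HSFA6A), against 4.48%, and higher for 1 (HSP16.9B), against 4.80%. OE lay lower in both couples for 2 of 47 members, HSP16.9A and HSP17.9A, against 160 of 24251 tested probe sets. It lay higher in both for 0 members, against 132.

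The counts by class were as follows. In couple 67.5, 18 of 22 small heat shock proteins lay lower in OE, with a median difference of -0.175, against 14 of 23 heat stress factors, with a median of -0.073; over all tested probe sets 47.3% lay lower and the median was 0.009. For the mean of both couples the numbers were 19 of 22 (median -0.104) and 12 of 23 (median -0.004), against 46.8% and 0.008 over all. In couple 67.1 they were 14 of 22 (median -0.022) and 10 of 23 (median 0.010), against 47.3% and 0.007. Lower in OE within both couples were 12 of 22 small heat shock proteins (54.5%) and 8 of 23 factors (34.8%), against 25.6% of all tested probe sets. Of the tested probe sets with a mean level below the median, 31.1% lay lower in both couples, near the share of the factors. For the mean of both couples 56.6% of these weak probe sets lay lower (median -0.014). Among the factors, class B had the lowest median in couple 67.5, -0.218 over 6 genes, with -0.043 over the 13 of class A and -0.076 over the 4 of class C. No difference between the classes was tested, and leaving out 1 array at a time moved these medians. In couple 67.5 they ran from -0.212 to -0.132 for the small heat shock proteins and from -0.142 (without null 67.5 replicate 1) to -0.057 for the factors, ranges that overlap. In couple 67.1 they ran from -0.085 (without null 67.1 replicate 3) to -0.011 for the small heat shock proteins and from -0.012 to 0.041 for the factors. For the mean of both couples they ran from -0.132 to -0.073 and from -0.058 to 0.016.

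Direction was also set against the level of a probe set. Of the 11087 tested probe sets with a mean level below the median, 57.6% lay lower in OE 67.5 than in null 67.5 (median -0.025) and 65.0% lower in OE 67.5 than in OE 67.1 (median -0.068). Of the 26 members below the array median on all 12 arrays, 21 lay lower in OE 67.5 than in null 67.5, with a median of -0.164. Of the 13 members above it on all arrays, 7 did, with a median of -0.033. Of the 18 members whose mean level lay above the median of all probe sets, 8 were small heat shock proteins, of which 7 lay lower in OE 67.5 than in null 67.5, with a median of -0.188 against -0.175 for all 22. The 9 factors among the 18 had 3 lower and a median of 0.052, against -0.073 for all 23. For the mean of both couples the medians of these brighter members were -0.182 (7 of 8 lower) and 0.049 (2 of 9 lower). No share was computed for the tested probe sets above the median, so the brighter members have no background of like level here. On the OE 67.5 arrays the mean deviation from the 12-array mean was -0.069, -0.143 and -0.165 for the small heat shock proteins, -0.040, -0.039 and -0.104 for the heat stress factors and -0.020, -0.049 and -0.049 for all weak probe sets. On the other 9 arrays it lay between -0.025 and 0.102 for the small heat shock proteins. OE 67.5 was the low line for both classes and for weak probe sets at large, and the part of weak signal in the members' shift was not tested.

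**Figure D4:**
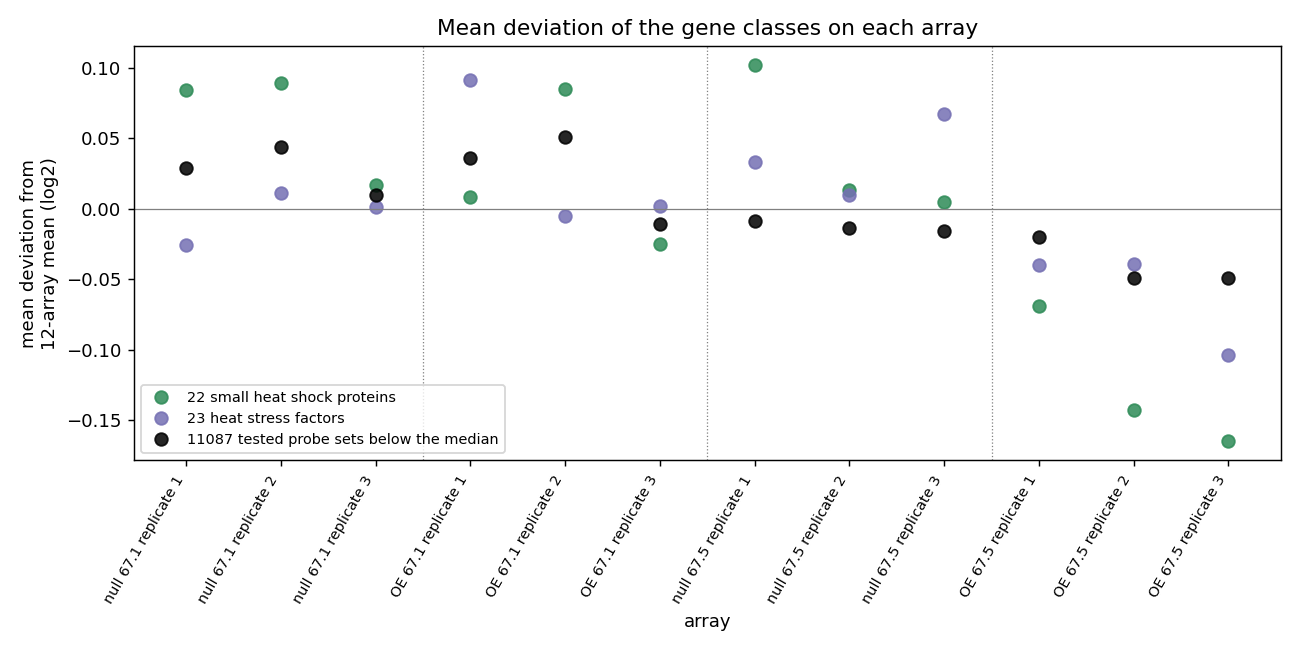
Mean deviation from the 12-array mean (log2) on each array for the 22 small heat shock proteins, the 23 heat stress factors and the 11087 tested probe sets below the median level. The 3 OE 67.5 arrays lie at -0.165 to -0.069 for the small heat shock proteins, below the other 9 arrays.

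Shoot and leaf base markers moved more in the same couple than in couple 67.1. Their mean level lay between 6.70 and 6.93 on the null 67.5 arrays, between 6.53 and 6.68 in OE 67.5, between 6.55 and 6.63 in null 67.1 and between 6.50 and 6.57 in OE 67.1. All 6 lay lower in OE 67.5 than in null 67.5 (median -0.153), where 47.3% of all tested probe sets did. All 6 lay higher in null 67.5 than in null 67.1 (median 0.270), where 12906 of 24251 did. HSFB2C, HSP81-1 and HSP17.9A had the same order. The family was split between the null lines, with 25 of 47 members lower in null 67.5 (median -0.019). Of the small heat shock proteins 12 of 22 lay lower there (median -0.084), where 46.8% of all tested probe sets did. In couple 67.1, 5 of the 6 markers lay lower in OE (median -0.049), and none of the 6 passed the test in any comparison. The 8 root genes had mean levels of 3.89 to 4.07 in null 67.5 and 3.89 to 3.98 in OE 67.5. Opposite shifts of single genes cancel in these means. In couple 67.5, 4 root genes lay lower in OE and 4 higher, with differences from -0.491 to 0.537. At an unadjusted p under 0.05 in limma, 2 of them stood out lower and 1 higher, against 10.8% of all tested probe sets. Between the OE lines, 4 root genes stood out lower in OE 67.5 and 2 higher, against 25.7% of all. No root gene passed the adjusted threshold in any comparison. Stem bases are mixed tissue, in which fewer cells of a type and less RNA per cell cannot be told apart, and the part of tissue make-up in these results was not tested.

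As a list, other genes of the protein folding machinery did not share the direction of the small heat shock proteins. Of 33 co-chaperones and other chaperones (BiP, calreticulin, protein disulfide isomerases, J-domain proteins, Clp ATPases, SGT1 and RAR1), 17 lay lower in OE 67.5 than in null 67.5, with a median of -0.003, and none passed the test in the couples or their mean. The list was mixed, and 16 genes lay higher. BIP1, BIP2, BIP3 and BIP4 differed by -0.128, -0.128, -0.181 and -0.081, and CLPD1 and PDIL5-3 by 0.352 and 0.318. Most of the 33 lay above the array median on all 12 arrays, against 5 of the 22 small heat shock proteins. The part of level in this contrast was not tested. The J-domain protein DJC27 (LOC4332515, also listed as ERDJ3A) was the 1 gene of this list past the threshold in any comparison: it was higher in null 67.5 than in null 67.1 by 0.70 ± 0.13 (limma, adjusted p = 0.0419), with -0.555 ± 0.13 in couple 67.5 (adjusted p = 0.097). In couple 67.1 it differed by 0.05 ± 0.13 (adjusted p = 1), so null 67.5 was its high line too. CLPB-M (LOC4328515), an organellar relative of CLPB1, differed by -0.26 ± 0.10 for the mean of both couples (adjusted p = 0.454). Its differences were -0.03 ± 0.14 in couple 67.1 and -0.49 ± 0.14 in couple 67.5.

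Of 13 other regulators and effectors of heat and protein stress (DREB2 factors, bZIP50, bZIP60 and ascorbate peroxidases), none passed the test in any of the 6 comparisons, and 7 lay lower in OE 67.5 than in null 67.5 (median -0.007). DREB2B (LOC4338484), a factor of drought and heat responses, had the largest of these differences, 0.45 ± 0.15 in couple 67.5 (adjusted p = 0.285) and 0.27 ± 0.10 for the mean of both couples (adjusted p = 0.453), opposite in sign to HSFB2C. In couple 67.1 DREB2B differed by 0.10 ± 0.15. It differed by -0.44 ± 0.15 between the null lines and by -0.09 ± 0.15 between the OE lines, so null 67.5 was its low line. APX2 (LOC4344397), an ascorbate peroxidase, which removes hydrogen peroxide, differed by -0.13 ± 0.06 for the mean (adjusted p = 0.58). Its differences were -0.03 ± 0.09 in couple 67.1, -0.23 ± 0.09 in couple 67.5 and 0.28 ± 0.09 between the null lines.

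Within lines the median SD was 0.162 for the small heat shock proteins and 0.129 for the factors, against 0.135 over all tested probe sets. Between the null lines the family was evenly split, 25 of 47 lower in null 67.5 (median -0.019), and between the OE lines 35 of 47 lay lower in OE 67.5 (median -0.103), where 46.1% of all tested probe sets and 65.0% of the weak ones did.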

How the data were processed

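Total RNA of stem bases was labelled with biotin and hybridised to 12 1-colour Affymetrix arrays, per the labels. The authors deposited log2 values made with RMA, per the submitters' processing notes, which name no other tool; neither its version nor a genome build is given there. RMA equalises the distributions of the arrays, so a change in total RNA cannot be seen and weak signals are compressed; the number of arrays limits the precision. No signal over background was used.

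Of 36643 probe sets in all, 24161 had 1 gene, 90 had several and 12392 were unnamed in the platform annotation; the 24251 annotated ones were tested. Names and gene order came from the table of assembly ASM3414082v1. Limma 3.58.1 in R 4.3.3 fitted 4 line means to 12 arrays (8 residual and 6.35 prior degrees of freedom); tests were two-sided. With 3 arrays against 3 the smallest p of an exact permutation is 0.1, so the model alone was used. Alternatives were the unnamed probe sets, a filter on level, quantile normalization, a trended prior, array weights, the arrays of a couple alone, the repetition as a block and leaving out each array.

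Members and lists were chosen with earlier results of these data known. Members named by rule were those past the threshold, in each class those with the smallest p (4 for the couples' mean, 2 in every other comparison except that of the OE lines), and the 3 highest and 1 lowest in mean level; of the other lists, the 2 with the smallest p. Other members named were chosen after their values were seen.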

Additional observations from a re-analysis of the deposited data

How the results depend on the processing

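In couple 67.5 the number of members past the adjusted threshold went from 1 to 0 with the 6 arrays of the couple alone, with the unnamed probe sets included, and with the filter on level, which removes HSFB2C and leaves 18 members; the other settings that kept all 12 arrays kept HSFB2C. Between the null lines it went from 0 to 1 with further quantile normalization (HSFA6A) and to 2 with array weights (HSFA6A and HSP81-1), and between the OE lines to 1 with array weights (HSFA6A). Whether the repetition numbers pair the arrays is undecided, and the labels give no shared day. Of 18 same-numbered pairs 11 correlated over 0.1, and 3 of 12 arrays correlated best with their own number in all other lines. The correlations ran from -0.057 to 0.291 for repetition 1, from -0.251 to 0.24 for repetition 2 and from 0.161 to 0.422 for repetition 3. With the replicate block 1 member passed between the null lines and 5 between the OE lines (HSFA6A, HSFC1B, HSP18.6, HSP18.9 and HSP23.2). With the filter on level the median of the 18 members was -0.099 in couple 67.5, -0.055 for the difference between the couples and 0.002 between the OE lines. By class it moved in opposite directions for the mean of both couples, from -0.104 to -0.182 for the small heat shock proteins (8 left) and from -0.004 to 0.049 for the factors (9 left). Leaving out 1 array gave 0 to 1 calls in couple 67.5, 0 to 2 between the null lines (2 without null 67.5 replicate 1) and 0 to 5 between the OE lines (5 without OE 67.1 replicate 3), and medians of -0.096 to -0.057 for the mean of both couples, -0.056 to 0.012 in couple 67.1, -0.167 to -0.100 in couple 67.5, -0.156 to -0.070 for the difference, -0.053 to -0.002 between the null lines and -0.116 to -0.062 between the OE lines. Over all probe sets tested, calls in couple 67.5 went from 83 to 29 with the 6 arrays alone and 33 with unnamed probe sets. Between the OE lines they went from 201 to 2048 with the replicate block, 525 with array weights and 930 without OE 67.1 replicate 3. Between the null lines they went from 56 to 60 with further quantile normalization, 764 with array weights and 507 with the replicate block. Without null 67.5 replicate 1 they numbered 1113. With array weights, the replicate block and that array left out, calls between the null lines thus rose over all probe sets as well as in the family. Apart from the filter, whose construction leaves fewer members, the cause was not tested.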
